A study of Saccharomyces cerevisiae with 21 samples.

Results

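The mitochondrial genome of baker's yeast, Saccharomyces cerevisiae, encodes a small set of proteins, and 10 of its protein genes were followed here through drying and rehydration: COX1, COX2, COX3, COB, ATP6, ATP8, OLI1, VAR1, BI2 and SCEI. A probe set was taken as theirs where the chip annotation listed 1 gene symbol and that symbol was one of the 10. The 10 genes are among 5656 that the annotation names in this way. This gave 16 probe sets of the 9335 in the table, 3 for COX1, 2 each for COB, ATP8, OLI1 and VAR1, and 1 for each of the other genes. RefSeq's table of yeast genes (assembly R64), which served for names and gene order, placed all 10 genes on the mitochondrial chromosome.

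COX1, COX2, COX3, COB, ATP6, ATP8 and OLI1 encode parts of the machinery that turns respiration into ATP, while VAR1, BI2 and SCEI encode a ribosomal protein, an intron maturase and an endonuclease. Cytochrome c oxidase (complex IV) and the cytochrome bc1 complex (complex III) move electrons and pump protons across the inner membrane, and the ATP synthase lets the protons flow back; each is built from a few mitochondrially encoded core subunits and a larger number of subunits encoded in the nucleus, so that both genomes must contribute. The mitochondrial genes are transcribed by a dedicated polymerase, several as long joint precursors that are cut and, for COX1, COB and the large ribosomal RNA, spliced. In S. cerevisiae the mature mitochondrial messengers carry no poly(A) tail, and glucose is known to hold down the nuclear genes of respiration in growing cells. The labels do not say how the RNA was primed for labelling.

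The RNA came from BY4743, a diploid laboratory strain with an S288C background, and every time point used that strain. Control cells came from a YPD culture (rich medium with glucose) kept at 30 °C until its A600 was 0.8, and had just been moved to YPD diluted 20-fold. The next group had dried for 18 h in 9 cm dishes at 22 to 25 °C and is called 50% dry in the titles. The dry group had dried for 42 h and was then held for 72 h at 20% relative humidity. The remaining groups were given diluted YPD again, and cells pooled from 4 plates were sampled 15, 45, 90 and 360 min later. Each of the 7 time points had 3 arrays, and nothing in the labels says that the 3 came from separate cultures, so the spread behind each p-value may be technical. Undried cells left in diluted medium for the same time were not among the samples, so water loss cannot be told apart from elapsed time, dilution and the shift in temperature.

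Signals are the linear values of the deposited table, in which every array had been brought to nearly the same trimmed mean (500.21 to 500.58). Each change below is therefore relative to the rest of the RNA on its array and is no amount per cell, and fewer cells that hold a transcript cannot be told apart from less of it in each cell. Background was taken as 29.6, which 95% of the values of 19 chip controls for mouse and unspiked bacterial genes did not exceed. Of the 16 probe sets, 7 were above it on all 21 arrays and another 7 on some arrays, and these other 7 were at background on all control arrays or on some of them. OLI1 3993_at and VAR1 3980_r_at never rose above it. Changes are log2 ± SE from one limma fit of all 9275 tested probe sets, with 3 arrays a group, and "rose" or "fell" means a Benjamini-Hochberg adjusted p under 0.05.

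Other measures of the arrays moved with time. The mean log2 signal of the 9 spike-in controls, RNAs added during the assay, went from 8.39 ± 0.12 (SD) in the control to 8.70 ± 0.19 in the dry state and 10.71 ± 0.06 at 360 min. The labels do not say at which step these were added. Scaling to them is therefore given below as another scaling, not as a correction for the amount of RNA or of cells. The log2 ratio of 3′ to 5′ probe signal for the chip's actin control (ACT1), a measure that climbs as RNA or its labelled copies become shorter, went from -0.31 ± 0.14 in the control to 0.61 ± 0.09 at 18 h, 1.05 ± 0.10 when dry, 1.72 ± 0.18 at 15 min and 2.32 ± 0.04 at 360 min. Between control and 360 min it differed by 2.64 with no overlap, as did the SRB4 ratio (1.32) and the SPT15 ratio (1.12), each with an exact permutation p of 0.1, two-sided, the smallest that 3 against 3 allows. During drying the 3 ratios did not move together. The SRB4 ratio was 0.82 ± 0.32 in the control, 1.79 ± 0.15 at 18 h and 1.72 ± 0.17 when dry. The SPT15 ratio was 1.66 ± 0.03, 1.80 ± 0.23 and 1.27 ± 0.05, and its dry values lay below all those of the control. Between 90 and 360 min the ratios of ACT1, SRB4 and SPT15 differed by -0.10, -0.32 and 0.12, with exact permutation p of 0.5, 0.3 and 0.5. Arrays were scanned on 4 days: time points up to 45 min on the earlier days and those of 90 and 360 min on the later ones, so scan day and time point cannot be told apart for comparisons between these sets. Replicate 2 of 90 min, scanned alone, stood apart, with a signal of 9912 on one of the 18S ribosomal RNA controls against 95.9 and 122.5 on the other 90 min arrays. The part of these measures in the changes described next was not tested.

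**Figure D1:**
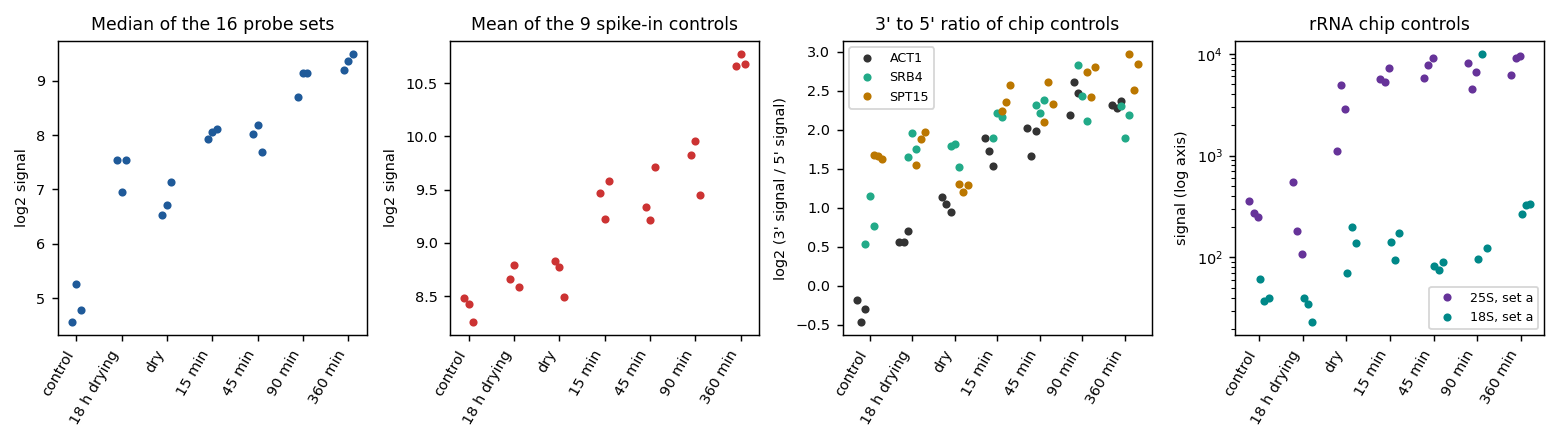
Measures of each of the 21 arrays by time point: the median log2 signal of the 16 mitochondrially encoded probe sets, the mean log2 signal of the 9 spike-in controls, the log2 ratio of 3′ to 5′ signal of 3 chip controls, and the signal (log axis) of one 25S and one 18S ribosomal RNA control. Each point is 1 array. All these measures are higher at 360 min than in the control, and replicate 2 of 90 min has an 18S signal of 9912.

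As deposited, signal was higher after the cycle than before it for every one of the 10 genes, while scaling to the spike-ins turned the direction for OLI1 and for 1 probe set of COX1. At 360 min of rehydration 15 of the 16 probe sets, from all 10 genes, had risen against the control and none had fallen, and the median change was 3.99 on the log2 scale against -0.01 over all tested probe sets. Over the whole chip 33.7% of probe sets rose in that comparison and 36.4% fell. Against the dry state the count was again 15 higher and none lower (median 3.07), where 21.2% of all probe sets rose and 40.7% fell; these comparisons share the 360 min arrays. One of the 15 was VAR1 3980_r_at, whose signals stayed at or below 4.0, under background throughout, so 14 probe sets from 10 genes carry the count. In the moderated F test over the 7 time points 15 of the 16 passed, as did 84.2% of all probe sets. With every array scaled to the spike-ins instead, 10 of the 14 rose against the control, COX1 4005_at and OLI1 3976_at fell, and COX3 3988_at and BI2 3969_at did not pass.

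**Figure D2:**
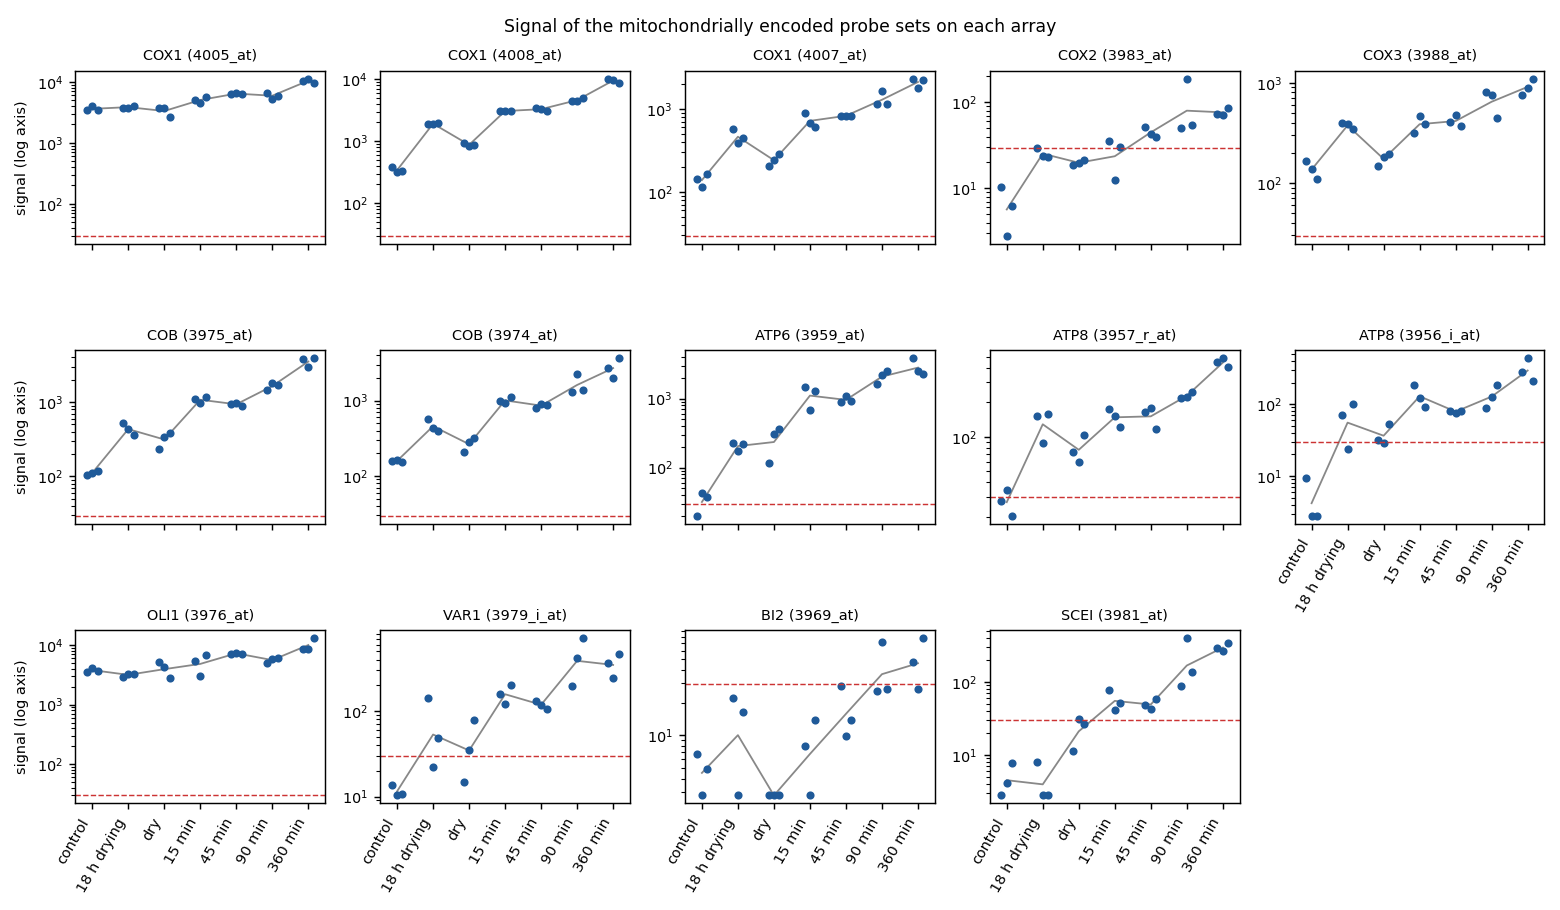
Signal (log axis) of the 14 probe sets that were above background on at least 1 array, at each of the 7 time points. Each point is 1 array, the grey line joins the geometric means of the 3 arrays, and the dashed red line is the background signal of 29.6. Most panels are higher at 18 h than in the control, lower when dry and highest late in rehydration, while COX1 4005_at and OLI1 3976_at change least.

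COX1 encodes the catalytic subunit of cytochrome c oxidase, and its 3 probe sets differed in size of change. For COX1 4008_at the control arrays read 376.7, 312.7 and 333.9, the 18 h arrays 1920.0, 1881.4 and 1935.0, and the dry arrays 924.1, 827.3 and 866.3. All 18 h arrays lay above all dry arrays, and these above all control arrays. During rehydration the signals were 3055.7, 3053.5 and 3066.2 at 15 min, 3404.9, 3356.6 and 3079.0 at 45 min, 4457.8, 4425.6 and 4892.2 at 90 min, and 10241.9, 9797.6 and 8535.3 at 360 min. Each rehydration time point lay wholly above the one before it. COX1 4008_at rose by 4.80 ± 0.09 between control and 360 min (27.9-fold, adjusted p = 1.53e-16, limma).

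The second set, COX1 4007_at, followed the same course at a lower signal. Its arrays read 144.3, 114.8 and 162.4 in the control, 571.9, 386.8 and 446.0 at 18 h, 204.7, 240.5 and 284.8 when dry, 892.2, 675.1 and 612.4 at 15 min, 822.1, 823.6 and 830.0 at 45 min, 1148.2, 1617.8 and 1148.7 at 90 min, and 2318.7, 1792.4 and 2246.1 at 360 min. The 360 min arrays lay above all others, and the gain over the control was 3.92 ± 0.19 (adjusted p = 1.94e-11). COX1 4005_at, in contrast, read 3416.4, 3959.2 and 3480.4 in the control, 3791.9, 3693.5 and 4095.7 at 18 h, and 3731.4, 3741.7 and 2637.0 when dry. These 9 values overlapped. It then read 5068.5, 4559.5 and 5559.4 at 15 min, 6391.0, 6520.1 and 6388.9 at 45 min, 6689.6, 5269.6 and 5920.4 at 90 min, and 10360.9, 11375.8 and 9697.6 at 360 min, a gain of 1.53 ± 0.13 over the control (adjusted p = 1.77e-08). That gain is smaller than the change of 2.32 in the spike-ins, and scaled to them COX1 4005_at fell by 0.78 (adjusted p = 6.24e-04), so its direction depends on the scaling. Over all tested probe sets the median with that scaling was -2.33. The probe sets of COX1 disagree in size, and the files hold no probe positions that would tell which part of the transcript each one reads.

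COX2 and COX3 encode the other core subunits of the oxidase; COX2 binds the copper centre that takes electrons from cytochrome c. COX2 3983_at was at background on all control arrays (10.4, 2.0 and 6.3), on all 18 h arrays (29.2, 23.8 and 23.3) and on all dry arrays (18.5, 19.9 and 21.2). It read 35.3, 12.4 and 30.1 at 15 min, 52.1, 43.3 and 39.7 at 45 min, 50.0, 189.2 and 54.1 at 90 min, and 74.1, 70.4 and 85.5 at 360 min. All arrays from 45 min on were above background, and the highest was replicate 2 of 90 min. At 360 min COX2 3983_at was at least 2.58-fold above control and dry cells (adjusted p = 3.97e-06 and 0.00282); scaled to the spike-ins the difference from dry was -0.06. COX3 3988_at read 164.7, 139.1 and 109.4 in the control, 398.1, 383.8 and 345.0 at 18 h, 149.0, 182.6 and 192.9 when dry, 318.6, 468.4 and 383.8 at 15 min, 409.4, 472.8 and 368.9 at 45 min, 801.4, 753.2 and 446.8 at 90 min, and 760.9, 895.7 and 1101.6 at 360 min. The dry arrays overlapped those of the control, and the 18 h arrays overlapped those of 15 and 45 min. COX3 3988_at rose by 2.74 ± 0.22 from control to 360 min (adjusted p = 8.94e-09), or by 0.43 (adjusted p = 0.124) with spike-in scaling, which does not pass.

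COB encodes cytochrome b, the one mitochondrially encoded subunit of complex III. COB 3975_at read 106.1, 110.5 and 117.7 in the control, 526.9, 428.1 and 360.5 at 18 h, and 237.5, 343.0 and 380.2 when dry. The drying and dry arrays overlapped each other and lay above all controls. It then read 1110.7, 971.7 and 1154.8 at 15 min, 935.5, 971.3 and 896.7 at 45 min, 1441.4, 1797.8 and 1711.6 at 90 min, and 3783.5, 2941.4 and 3884.5 at 360 min. COB 3975_at rose by 4.98 ± 0.17 from control to 360 min (31.5-fold, adjusted p = 2.83e-13). The other set, COB 3974_at, read 159.4, 164.1 and 151.8 in the control, 568.8, 430.2 and 391.9 at 18 h, 209.9, 278.9 and 314.5 when dry, 979.6, 931.5 and 1123.7 at 15 min, 794.6, 914.0 and 872.2 at 45 min, 1310.8, 2293.6 and 1406.3 at 90 min, and 2739.0, 1981.7 and 3655.7 at 360 min. Both sets of COB moved together: COB 3974_at rose by 4.10 ± 0.23 (adjusted p = 1.02e-10), and scaled to the spike-ins they rose by 2.66 and 1.78.

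BI2 is the maturase read from the second intron of COB, a protein that helps to remove that same intron; in the RefSeq gene table BI2, BI3 and BI4 lie within COB. BI2 3969_at read 6.7, 1.0 and 4.9 in the control, 22.1, 1.3 and 16.3 at 18 h, 0.6, 0.5 and 1.8 when dry, 7.9, 1.9 and 13.8 at 15 min, and 28.3, 9.9 and 13.9 at 45 min, all at background. It was above background on 1 array of 90 min (25.4, 71.7 and 26.5) and on 2 arrays of 360 min (46.7, 26.4 and 78.1). It was at least 1.55-fold above control at 360 min (adjusted p = 7.02e-04), and with spike-in scaling this did not pass (adjusted p = 0.177).

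ATP6 and ATP8 encode subunits of the membrane part of the ATP synthase, ATP6 forming the proton path; in the gene table COX1, ATP8 and ATP6 are neighbours in that order. ATP6 3959_at read 20.2, 43.0 and 37.3 in the control, 229.1, 173.0 and 218.2 at 18 h, and 115.8, 304.5 and 368.5 when dry. The first control array was at background, and the dry arrays spanned those of 18 h. At 15 min ATP6 3959_at read 1490.1, 693.2 and 1300.9, at 45 min 884.0, 1083.1 and 915.1, at 90 min 1598.4, 2200.7 and 2544.4, and at 360 min 3824.3, 2519.7 and 2283.4. Its rise of 6.46 ± 0.40 over the control was the largest of the fitted changes that did not start from background on all control arrays (87.9-fold, adjusted p = 3.41e-10), and its 90 and 360 min arrays overlapped.

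For ATP8 3957_r_at, whose suffix marks possible cross-hybridization, the control arrays read 27.6, 34.1 and 20.4, the 18 h arrays 152.2, 88.2 and 157.9, and the dry arrays 72.9, 60.3 and 103.2. It went on at 174.9, 152.0 and 121.4 at 15 min, 164.7, 179.1 and 116.1 at 45 min, 217.2, 221.5 and 245.9 at 90 min, and 447.8, 485.0 and 404.5 at 360 min. The 360 min arrays lay above all others, with a rise of 4.05 ± 0.25 over the control (adjusted p = 3.95e-10), where 2 of the 3 control arrays were at background. ATP8 3956_i_at, also with such a suffix, was at background in the control (9.3, 0.6 and 0.3), and read 69.9, 23.8 and 101.7 at 18 h, 31.7, 28.7 and 52.8 when dry, 187.5, 123.2 and 92.3 at 15 min, 81.3, 75.4 and 79.5 at 45 min, 89.2, 124.9 and 186.1 at 90 min, and 279.8, 435.0 and 208.6 at 360 min. At 360 min ATP8 3956_i_at was at least 9.92-fold above control (adjusted p = 2.3e-08).

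OLI1 encodes subunit c, the protein that forms the rotating ring of the ATP synthase. OLI1 3976_at read 3604.2, 4172.5 and 3714.3 in the control, 2973.5, 3262.3 and 3310.8 at 18 h, and 5140.3, 4311.8 and 2810.0 when dry. The 18 h arrays all lay below the controls, but the difference of -0.27 ± 0.25 did not pass (adjusted p = 0.378). It then read 5440.6, 3095.9 and 6812.9 at 15 min, 7272.2, 7478.3 and 7228.8 at 45 min, 4993.4, 5818.9 and 6161.9 at 90 min, and 8825.8, 8826.4 and 13224.8 at 360 min. The 360 min arrays lay above all others, and OLI1 3976_at rose by 1.40 ± 0.25 over the control (adjusted p = 1.01e-04). As for COX1 4005_at the direction turned with spike-in scaling, where OLI1 3976_at fell by 0.92 (adjusted p = 0.00216) and the median over all tested probe sets was -2.33. The second set, OLI1 3993_at, was under 2.8 on every array and gave no measurement.

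VAR1 encodes a protein of the small subunit of the mitochondrial ribosome, the only protein of this set that serves translation. VAR1 3979_i_at, another set with a suffix, was at background in the control (13.7, 10.3 and 10.8) and scattered at 18 h (143.6, 21.9 and 48.0) and when dry (14.9, 35.3 and 79.0). It read 159.3, 122.2 and 201.6 at 15 min, 132.1, 118.8 and 106.9 at 45 min, 194.4, 419.9 and 716.6 at 90 min, and 364.4, 246.0 and 468.3 at 360 min. The 90 and 360 min arrays overlapped, and at 360 min VAR1 3979_i_at was at least 11.7-fold above control (adjusted p = 2.85e-06). SCEI is the homing endonuclease encoded within the intron of the large mitochondrial ribosomal RNA, and the gene table places it inside that RNA gene. SCEI 3981_at was at background in the control (2.5, 4.2 and 7.9) and at 18 h (8.0, 2.5 and 2.2), read 11.4, 31.3 and 26.2 when dry, 77.6, 41.5 and 51.4 at 15 min, 47.5, 41.9 and 59.1 at 45 min, 87.6, 395.8 and 134.2 at 90 min, and 285.4, 261.7 and 338.1 at 360 min. Its highest array was replicate 2 of 90 min, and at 360 min SCEI 3981_at was at least 9.90-fold above control (adjusted p = 4.81e-08).

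**Figure D3:**
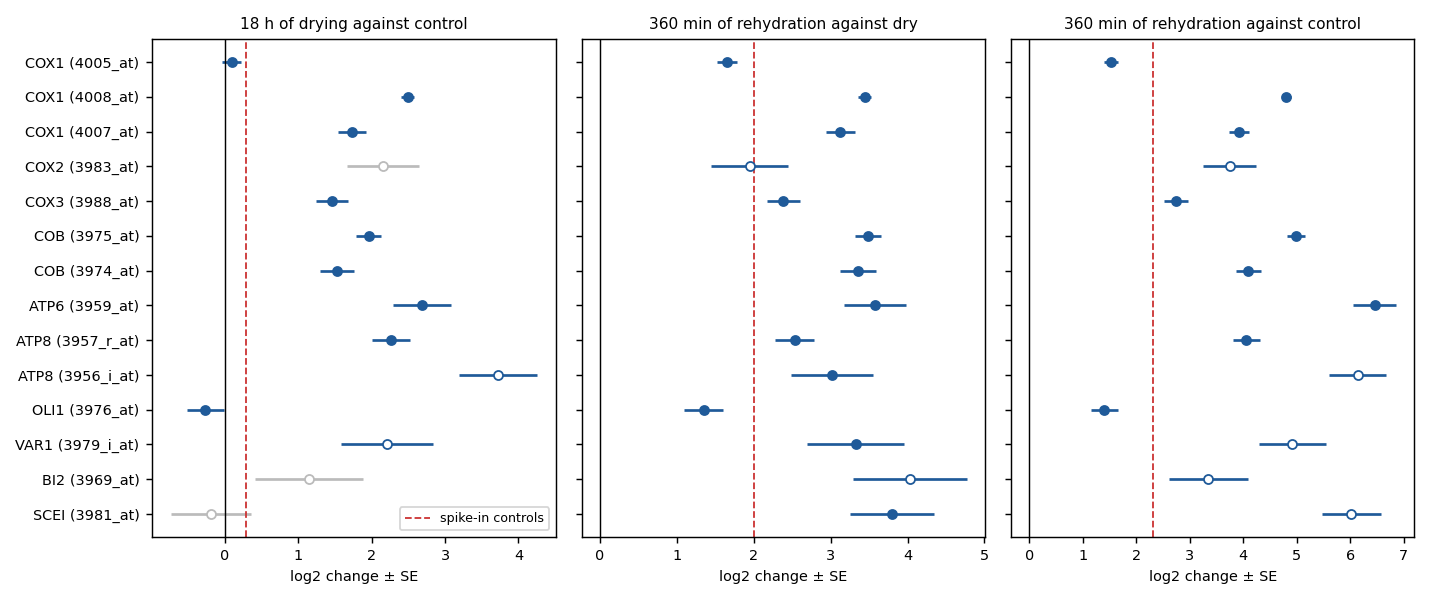
Log2 change ± SE (limma, 3 arrays a group) of the 14 probe sets in 3 comparisons. Open symbols mark sets with 1 group at background on all arrays and grey open symbols those with both, and the dashed red line is the change of the 9 spike-in controls. At 360 min against control COX1 4005_at (1.53) and OLI1 3976_at (1.40) lie left of the spike-in line at 2.32 and the other 12 lie right of it.

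The first 18 h of drying came with a rise in most of these messengers. Of the 16 probe sets 10, from 7 genes, rose and none fell (median 1.63, against 0.11 over all), where 36.2% of all probe sets rose and 27.3% fell. COX1 4008_at rose by 2.49 ± 0.09 (adjusted p = 3.46e-13), ATP6 3959_at by 2.69 ± 0.40 (adjusted p = 1.81e-05) and COB 3975_at by 1.96 ± 0.17 (adjusted p = 3.14e-08). Smaller rises were those of COX1 4007_at (1.73), COB 3974_at (1.53) and COX3 3988_at (1.46), and ATP8 3957_r_at rose by 2.26. The call for COX2 3983_at was made between groups that were both at background. COX1 4005_at (0.10 ± 0.13, adjusted p = 0.552) did not pass, nor did SCEI and BI2, which were at background in both groups. The spike-ins changed by 0.29 in the mean, but not all in 1 direction. Those of BioB were lower at 18 h than in the control (BioB-5 107.5 to 70.5). Those of BioC, BioDn and CreX were higher (BioDn-5 206.5 to 388.9). Scaled to the mean of the spike-ins the count was the same, 10 higher and none lower, where the median over all tested probe sets was -0.18. Replicate 2 of 18 h, scanned with the controls, was below its time point's mean for 11 of the 13 probe sets above background on at least 11 arrays, by a median of 0.09 on the log2 scale. That array alone, against the 3 controls of its scan day, gave 9 probe sets higher and none lower, with VAR1 3979_i_at not passing (0.93, adjusted p = 0.326); a lone array is there assumed to vary like the other groups.

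From 18 h to the dry state some probe sets of COX1, COX3, COB and ATP8 fell. The probe sets that fell were 6 of 16, from 4 genes, and 1 rose (median -0.53), where 17% of all probe sets fell and 22.1% rose. COX1 4008_at fell by 1.13 (SE 0.09, adjusted p = 5.94e-08), COX3 3988_at by 1.11 (SE 0.22, adjusted p = 7.63e-04) and COX1 4007_at by 0.94 (SE 0.19, adjusted p = 0.00104). COB 3974_at fell by 0.79, ATP8 3957_r_at by 0.74 and COB 3975_at by 0.46. For COB 3975_at and ATP8 3957_r_at the arrays of the groups overlapped. COX1 4005_at (-0.21 ± 0.13, adjusted p = 0.219), COX2 3983_at (at background in both groups) and ATP6 3959_at (0.20 ± 0.40, adjusted p = 0.757) did not pass. The set that rose, SCEI 3981_at, went from background on all arrays to 1 of 3 above it. Leaving out replicate 1 of 18 h or replicate 1 of dry took the count of calls from 7 to 4, and both sets of COB and ATP8 3957_r_at did not pass in either fit.

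Dry cells still differed from the control. Here 10 of 16 rose and none fell (median 1.08), where 40.1% of all probe sets rose and 27.2% fell. ATP6 3959_at was up by 2.88 ± 0.40 and COX1 4008_at by 1.36 ± 0.09, and COB 3975_at was 2.82-fold higher, while COX3 3988_at (0.36 ± 0.22, adjusted p = 0.167), COX1 4005_at (-0.12) and OLI1 3976_at (0.05) did not pass. Values near background carried part of this count: with every value under 29.2 set to that level, 6 probe sets were called and the median was 0.34. Scaling moved it too, with 8 higher and 3 lower after median centring (COX1 4005_at and the sets of OLI1 and VAR1 always at background) and 7 higher and 1 lower, COX1 4005_at (-0.43, adjusted p = 0.0498), after scaling to the spike-ins. No scan day held both groups, and with scan day as a block COX1 4008_at, COB 3975_at and ATP6 3959_at rose, BI2, at background in both groups, fell, and the median was 0.51. The dry arrays differed among themselves, and of 13 probe sets 10 were below their mean in replicate 1 and 10 above it in replicate 3. One of the 25S ribosomal RNA controls read 1113.3, 4920.7 and 2852.3 on these arrays, so it too was lowest in replicate 1, but it was highest in replicate 2.

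At 15 min of rehydration probe sets of COX1, COX3, COB, ATP6, ATP8 and VAR1 were higher than in dry cells. Against dry cells 10 of 16, from 6 genes, rose and none fell (median 1.32 against -0.18 over all), where 12.8% of all probe sets rose and 27.5% fell. ATP6 3959_at rose by 2.23 ± 0.40 (adjusted p = 3.81e-04), COB 3974_at by 1.93 ± 0.23 (adjusted p = 1.09e-05), COX1 4008_at by 1.81 ± 0.09 (adjusted p = 2.19e-09) and COB 3975_at by 1.78 ± 0.17. ATP8 3956_i_at rose by 1.82 and VAR1 3979_i_at by 2.19, and COX1 4005_at by 0.60. OLI1 3976_at (0.29 ± 0.25, adjusted p = 0.386) and SCEI 3981_at (1.38 ± 0.55, adjusted p = 0.0569) did not pass. The spike-ins rose by 0.73 in the same step. Scaled to them, 5 of the 13 probe sets above background in either group rose and none of the 13 fell. Those that rose were COX1 4008_at, COX1 4007_at, both sets of COB and ATP6 3959_at. The median over all tested probe sets was then -0.91.

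Between 15 and 45 min no probe set passed in either direction by limma, and 2 had an unadjusted p under 0.05, where 0.27% of all probe sets rose and 0.151% fell. The median of 0.01 hid differences of both signs, from ATP8 3956_i_at (-0.71 ± 0.53) to COX2 3983_at (0.92 ± 0.50) among sets above background. Between 45 and 90 min 3 rose and none fell (median 0.67), where 2.17% of all probe sets rose and 3.31% fell. They were COX1 4008_at (0.49 ± 0.09, adjusted p = 0.00532), COB 3975_at (0.81 ± 0.17, adjusted p = 0.0123) and COB 3974_at (0.91 ± 0.23, adjusted p = 0.0315). Without replicate 2 of 90 min, the array that stood apart, 2 passed and COB 3974_at did not, and with spike-in scaling none of the 16 passed. From 90 to 360 min 8 rose, 7 of them above background, and none fell (median 0.73), where 15.4% of all probe sets rose and 22% fell. COB 3975_at rose by 1.09 ± 0.17, COX1 4008_at by 1.05 ± 0.09, ATP8 3957_r_at by 0.96 ± 0.25, OLI1 3976_at by 0.84 ± 0.25 and COX1 4005_at by 0.82 ± 0.13. Without replicate 2 of 90 min 9 rose, SCEI 3981_at among them, and none fell, with a median of 0.84. The spike-ins rose by 0.96 in that step, about as much as these probe sets. Scaled to them none of the 14 probe sets above background passed, where the median over all tested probe sets was -0.98.

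Most of the brighter probe sets were alike in their course, but COX1 4005_at and OLI1 3976_at did not rise at 18 h. Over the 7 time-point means of log2 signal, the 13 sets above background on at least 11 arrays had 78 pairs with Pearson correlations from 0.65 to 0.99 and a median of 0.93, given as a description of points that share their arrays and scaling. Among 5449 other probe sets, those closest to COX3 were in the same genome: AI2 (r = 0.991), a maturase of a COX1 intron, and BI4 (r = 0.983), the maturase of the fourth COB intron. For ATP8 they were the nuclear gene KAR9 (r = 0.989) and AI5_ALPHA (r = 0.985), of a COX1 intron. COX1 4005_at and OLI1 3976_at both had PDC1, the main pyruvate decarboxylase of fermentation, among their closest 2 (r = 0.986 and 0.983); the other was the cyclophilin gene CPR1 (r = 0.990) for COX1 and the stress protein gene HSP12 (r = 0.976) for OLI1. COB was closest to the small nucleolar RNA gene SNR58 (r = 0.996) and to PAC11 (r = 0.988), ATP6 to HKR1 (r = 0.988) and NPR1 (r = 0.983), and VAR1 to HKR1 (r = 0.989) and SNR66 (r = 0.972). COX2, BI2 and SCEI, at or near background for much of the course, had AQY1 (r = 0.979), MIC10 (r = 0.985) and FOL2 (r = 0.987) closest.

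Other genes of the mitochondrial chromosome, most of them encoded in introns, were also measured. There were 12 further probe sets with 1 gene, of 9 genes, none of them among the 10. At 18 h 9 rose and none fell (median 1.43), and at 360 min against control 9 rose and none fell (median 2.88). One probe set each of BI3, BI4 and Q0255 passed in neither comparison. AI1, encoded within the first COX1 intron, read 68.3 ± 8.4 (SD, n = 3) in the control, 471.9 ± 204.0 at 18 h, 455.3 ± 96.3 when dry and 2840.3 ± 105.4 at 360 min. Its 360 min signal stood far above its control spread, as did that of AI3 (41.7 ± 6.6 to 349.8 ± 15.8). Scaled to the spike-ins the list's median at 360 min was 0.57.

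Nuclear genes for the same complexes went both ways; the shares over all probe sets to set beside the counts of this and the next lists are 36.2% higher and 27.3% lower at 18 h, and 33.7% and 36.4% at 360 min against control. At 18 h of drying 8 of the 9 nuclear subunits of complex IV rose and 1 fell (median 1.38), all 9 of complex III rose (median 0.96), and of the 15 of the ATP synthase 9 rose and 1 fell (median 0.55). At 360 min against control 3 of the complex IV genes were higher and 6 lower (median -1.08), 4 and 4 of complex III (median 0.24), and 3 and 10 of the ATP synthase (median -0.59). COX5A, an oxidase subunit, went from 1645 ± 198 (SD, n = 3) in the control to 2288 ± 137 at 18 h and 367.6 ± 37.4 at 360 min. RIP1, the Rieske iron-sulphur protein of complex III, went from 1866 ± 21 to 4321 ± 448 and 441.2 ± 16.3, and ATP3, the gamma subunit of the ATP synthase, from 3255 ± 51 to 5498 ± 606 and 738.4 ± 62.7. Other examples ended above the control: COX13, another oxidase subunit, at 936.5 ± 74.2, 3244 ± 102 and 1403 ± 126, QCR6, of complex III, at 535.9 ± 13.1, 820.1 ± 32.0 and 1038 ± 63, and INH1, which inhibits the ATP synthase, at 243.9 ± 9.6, 1684 ± 54 and 731.8 ± 97.8. With quantile normalization the counts at 360 min were 3 higher and 5 lower for complex IV, and 5 and 4 for complex III. For the ATP synthase they were 3 and 7 (median -0.19). With spike-in scaling every gene of these 3 lists was lower at 360 min than in the control. The median over all tested probe sets was then -2.33, so lower values were not particular to these lists.

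**Figure D4:**
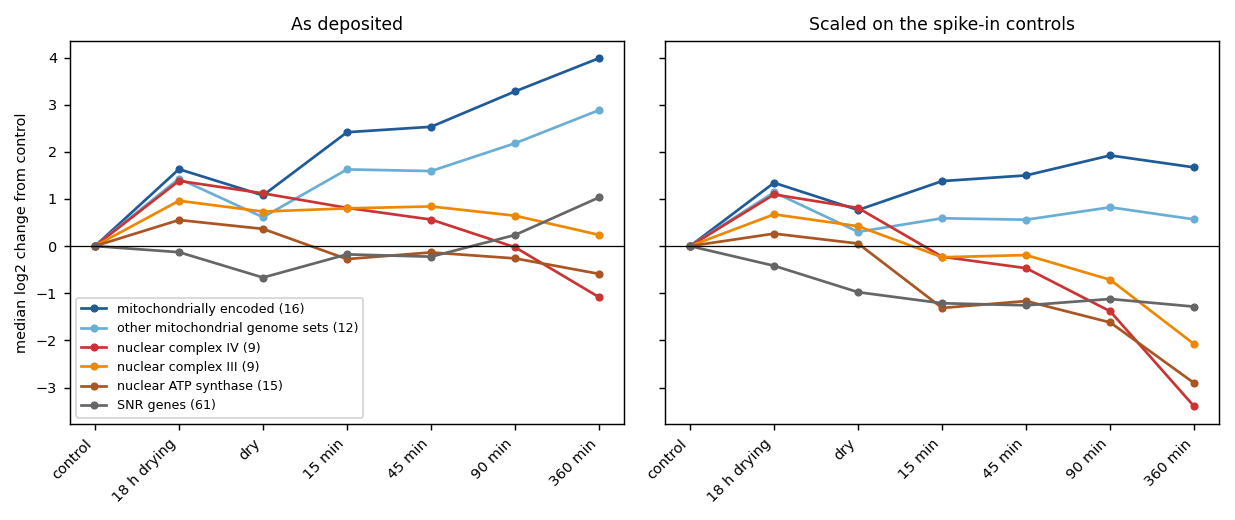
Median log2 change from the control at each time point for the 16 mitochondrially encoded probe sets, the other 12 single-gene sets of the mitochondrial genome, the nuclear subunits of complexes IV, III and the ATP synthase, and the 61 SNR genes (small nucleolar and nuclear RNAs), as deposited and with each array scaled on the spike-ins. Lines join medians with no error shown. By 360 min the mitochondrially encoded median is the highest in both panels, at 3.99 and 1.67. That of complex IV nuclear subunits is below 0 in both. The median over all tested probe sets, not drawn, is -0.01 as deposited and -2.33 scaled on the spike-ins.

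Genes that serve the mitochondrial messengers showed mixed changes. Of 13 genes of mitochondrial transcription, mtDNA upkeep and RNA decay, 7 rose and 3 fell at 18 h (median 0.67), and 2 were higher and 8 lower at 360 min than in the control (median -0.94). RPO41, the mitochondrial RNA polymerase, read 679.7 ± 91.2 (SD, n = 3) in the control, 1087.9 ± 59.5 at 18 h and 266.2 ± 25.1 at 360 min, and its partner factor MTF1 read 192.9 ± 27.3, 176.0 ± 35.2 and 48.7 ± 14.1. Of 21 genes that activate or stabilise single mitochondrial messengers 12 rose and 3 fell at 18 h (median 0.99), and 6 were higher and 9 lower at 360 min (median 0.18). Among them NCA3, which acts on the joint ATP8 and ATP6 messenger, went from 171.8 ± 7.1 to 1260.3 ± 100.8 at 18 h and back to 119.8 ± 18.1 when dry. Of 7 genes for splicing mitochondrial introns 5 rose and 2 fell at 18 h (median 0.89), and 3 were higher and 2 lower at 360 min (median 0.18).

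Of 16 genes for membrane insertion and assembly 2 rose and 6 fell at 18 h (median -0.41), and 2 were higher and 13 lower at 360 min (median -1.03). OXA1, the insertase for mitochondrially made proteins, read 1671 ± 105 in the control, 696.6 ± 55.6 at 18 h, 478.6 ± 46.3 when dry and 1600 ± 134 at 360 min. Unlike the 13 that were lower, OXA1 did not pass at 360 min against control (-0.06 ± 0.14, adjusted p = 0.70). Of 31 nuclear genes listed under the small mitochondrial ribosomal subunit, in which the VAR1 protein sits, 7 rose and 11 fell at 18 h (median -0.19). At 360 min 3 were higher and 19 lower (median -1.12). The list includes KGD4 and EHD3, which encode proteins of metabolic enzymes, and KGD4 was among those that rose at 18 h (0.73 ± 0.12, adjusted p = 7.06e-05). With spike-in scaling no gene of the last 5 lists was higher at 360 min than in the control, where the median over all tested probe sets was -2.33.

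The SNR genes make RNAs that, like the mitochondrial messengers, carry no poly(A) tail when mature. Of these 61 genes 41 were higher and 5 lower at 360 min than in the control (median 1.03), and 30 rose and 1 fell between dry and 15 min (median 0.73). At 18 h of drying, when the mitochondrially encoded sets rose, 13 SNR genes rose and 15 fell (median -0.13). SNR14, the U4 spliceosomal RNA, went from 80.8 ± 2.5 (SD, n = 3) in the control to 393.6 ± 8.6 at 18 h and 13820.2 ± 806.6 at 360 min. Scaled to the spike-ins 12 SNR genes were higher and 38 lower at 360 min than in the control. That count leaves out no gene at background. On the same footing the mitochondrially encoded count was 10 higher and 4 lower of 16, or 10 and 2 of the 14 above background. The median over all tested probe sets was then -2.33.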

How the data were processed

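RNA from 21 samples, 3 at each of 7 time points, was measured on Affymetrix YG_S98 arrays. The deposited table holds intensities, 1 linear probe set signal per array, which the authors made, per the labels, with the GeneChip software and Wilcoxon's signed-rank test. A linear mixed model of 2 steps is named as well, and whether the table precedes it is not stated there. Scan days come from each array's deposited run record, whose other entries are not measurements and were not used. Groups were taken from the sample titles.

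Signals under 2.8, the lowest 5% of positive values, were set to 2.8 and log2 was taken. After 60 chip controls were left out, 9275 probe sets were fitted with 1 mean per time point over all 21 arrays (R 4.3.3, limma 3.58.1, eBayes), and p-values were adjusted by the Benjamini-Hochberg method over all of them for each of 9 comparisons and the moderated F test; every adjusted p in the text is limma's. "At least N-fold" is the brighter group's mean over 29.6 where all arrays of the other group were at or below background. The 3′ to 5′ ratios were compared by two-sided exact permutation tests. Data were simulated from the control means and the residual spread of the fit over all 21 arrays, with changes planted at 18 h of drying. Of 100 probe sets changed by 1 on the log2 scale 61% were recovered, of 100 changed by 2 85%, and 0.132% of 9075 unchanged ones were called. Far fewer probe sets changed there than the 5894 called at 18 h in the data, so these shares are not the recovery of that test. The number of arrays limits the precision.

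The genes, the lists of related genes and the tests were chosen with earlier results of these data known. All probe sets of the 10 genes are named, as are the 2 probe sets closest to a gene by Pearson correlation (1 for the dimmest). Examples were picked from the genes of each list with the smallest p of the F test. Not all of those are named, the smallest p is not always among them, and the splicing list has no example. Alternatives were other scalings, floors and pseudocounts, a filter on dim probe sets, blocks for replicate number and scan day, and leaving out each array.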

Additional observations from a re-analysis of the deposited data

How the results depend on the processing

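Scaling to the spike-ins changed the most. Counts of called probe sets became 0 between 45 and 90 min and 2 (both lower) between 90 and 360 min. For 360 min against control they became 10 higher and 4 lower, among them sets at background. The medians over all tested probe sets in these 3 comparisons were then -0.35, -0.98 and -2.33. Values called higher as deposited that turned negative were COX1 4005_at at 15 min against dry (-0.13), at 360 against 90 min COX1 4005_at (-0.14), COX1 4007_at (-0.25), COB 3974_at (-0.22), OLI1 3976_at (-0.12) and VAR1 3980_r_at (-0.65), at 360 min against dry COX1 4005_at (-0.35), COX2 3983_at (-0.061), OLI1 3976_at (-0.66) and VAR1 3980_r_at (-1.61), and at 360 min against control COX1 4005_at (-0.78), OLI1 3976_at (-0.92) and VAR1 3980_r_at (-1.92). The cause was not tested. Another 9 values, called in neither scaling, changed sign. With a floor of 29.2, 6 sets were called for dry against control. With scan day as a block that count was 4 and VAR1 3979_i_at changed to -0.33; the block could not be fitted for 90 against 45 min or for 360 min against dry or control. As a random block (added after the data were seen, as were the values within a scan day) scan day left 15 called for each of the last 2 comparisons. Between 45 and 90 min 7 were called with log2(value + 50) and 5 without the dimmest 25% of probe sets. Leaving out 1 array gave 4 to 7 calls for dry against 18 h and 15 in every such fit of 360 min against dry or control. Same-numbered arrays deviated together with correlations from -0.13 to 0.09 and differently numbered ones from -0.17 to 0.16, so no pairing by number was seen. The replicate block left the count of calls at 10, 7, 10, 10, 0, 3, 8, 15 and 15 in the 9 comparisons and 15 in the F test. Of 2268 values of single probe sets under these alternatives, 2108 kept their side of the threshold (37 of these, not called, changed sign), 93 no longer passed, 53 came to pass and 14 called values turned sign. A signal at background gives only a bound, which limits COX2, BI2, SCEI and VAR1 most.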
